A study of Rattus norvegicus with 6 samples.

Results

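The 7 S100 genes S100b, S100a1, S100a4, S100a6, S100a11, S100a13 and S100a16 were followed in cultured rat astrocytes with and without β-hydroxybutyrate (BHB), the main circulating ketone body. They were picked by symbol from the 22608 genes of the deposited table, and each of the 7 was found and lay well above the minimum level for testing. Poly(A) RNA was sequenced from 3 libraries of control and 3 libraries of BHB-treated primary astrocytes from rat brain. The table's column names give the BHB dose as 2 mM, and the duration of treatment, the strain and the age of the animals were not given in the sources used here. As labels tie no library to its own culture or animal, the p-values reflect how far these libraries scatter, and that scatter may be technical.

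S100 proteins are small calcium-binding proteins with a pair of EF-hand motifs. Most form dimers, and calcium opens a surface on each subunit that binds target proteins such as annexins, cytoskeletal proteins and kinases. In the brain S100B is made mainly by astrocytes and is a common marker of them. It acts inside the cell on the cytoskeleton and kinases, and it is also secreted and can bind the receptor RAGE, encoded by Ager.

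Expression is given as FPKM, fragment counts scaled by transcript length and library depth, which allows levels of different genes to be set side by side. Each library had 12288 to 12312 genes at 1 FPKM or more, and sums of FPKM lay between 354565 and 367448. Pairwise Pearson correlations across the tested genes were 0.990 to 0.993, where genes are not independent replicates. All 13 astrocyte markers reached 1 FPKM in at least 3 libraries, led by the fatty acid binding protein gene Fabp7 at 2319 ± 90.2 FPKM in controls (SD, n = 3). Their summed level was 4942 to 5197 FPKM in controls and 5332 to 5362 FPKM after BHB. Of the 13 markers 1 passed, the glutamate transporter gene Slc1a3 (log2 fold change 1.16, limma adjusted p = 1.64e-05), and the sums of the other 12 overlapped (4736 to 5000.0 and 4864 to 4909 FPKM). Of the other cell types, fibroblast and mural genes had a high summed level, 4470 to 4845 FPKM in controls and 4625 to 5007 FPKM after BHB. Only 6 of 10 reached 1 FPKM in at least 3 libraries. Most of the sum came from Tagln and Acta2 (3030 ± 142 and 1285 ± 72.2 FPKM in controls, SD, n = 3). Lower sums were found for microglia genes (11 of 12 at 1 FPKM; 62.0 to 68.7 and 62.9 to 66.7 FPKM), oligodendrocyte lineage genes (7 of 11; 92.5 to 97.9 and 95.1 to 99.1 FPKM) and neuron genes (6 of 10; 86.3 to 89.0 and 85.5 to 87.4 FPKM). The lowest sums were those of ependymal genes (3 of 6; 35.2 to 39.0 and 33.0 to 35.7 FPKM, with Tmem212 and Pifo at 0) and endothelial genes (1 of 8; 3.56 to 3.92 and 3.40 to 4.55 FPKM, with Cldn5 at 0). By mean over all 6 libraries, C1qb led the microglia genes (10.7 FPKM), Cnp the oligodendrocyte lineage genes (48.7 FPKM) and Stmn2 the neuron genes (54.4 FPKM). Foxj1 led the ependymal genes (32.5 FPKM) and Eng the endothelial genes (2.34 FPKM). Most of the neuron, ependymal and endothelial sums came from Stmn2, Foxj1 and Eng. S100 genes are also expressed by several of these cell types, and their part in the S100 levels was not tested. In bulk samples such as these, fewer cells of a type and less RNA per cell cannot be told apart.

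S100a11 was the most abundant of the 7 genes and S100a13 the least. In controls S100a11, whose protein binds annexin A1, stood at 431 ± 52.8 FPKM, followed by S100b at 254 ± 17.0 FPKM (SD, n = 3 per group). S100a4, whose protein binds non-muscle myosin and is linked to cell motility, stood at 133 ± 17.6 FPKM. The other members were lower. S100a16 was at 61.0 ± 2.78 FPKM, S100a6, whose protein is known as calcyclin, at 51.6 ± 5.45 FPKM, S100a1 at 44.6 ± 2.96 FPKM and S100a13, which takes part in the release of FGF1, at 31.7 ± 1.57 FPKM (SD, n = 3 per group). In these libraries S100a11 ranked 85 by mean level among the 12373 genes tested and S100b ranked 176, while S100a13 ranked 2401.

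This order held in both groups. S100a11 exceeded S100b, S100b exceeded S100a4 and S100a4 exceeded S100a16 without overlap of their values in either group. The ranges of S100a6 and S100a1 overlapped in controls, where the lowest S100a6 value was 47.6 FPKM and the highest S100a1 value 47.9 FPKM. With BHB the ranges of S100a16 and S100a6 overlapped instead, with S100a16 higher in 2 of 3 libraries. S100a11 held 39.7% to 45.0% of the summed FPKM of the 7 genes and S100b 23.3% to 26.1%.

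**Figure D1:**
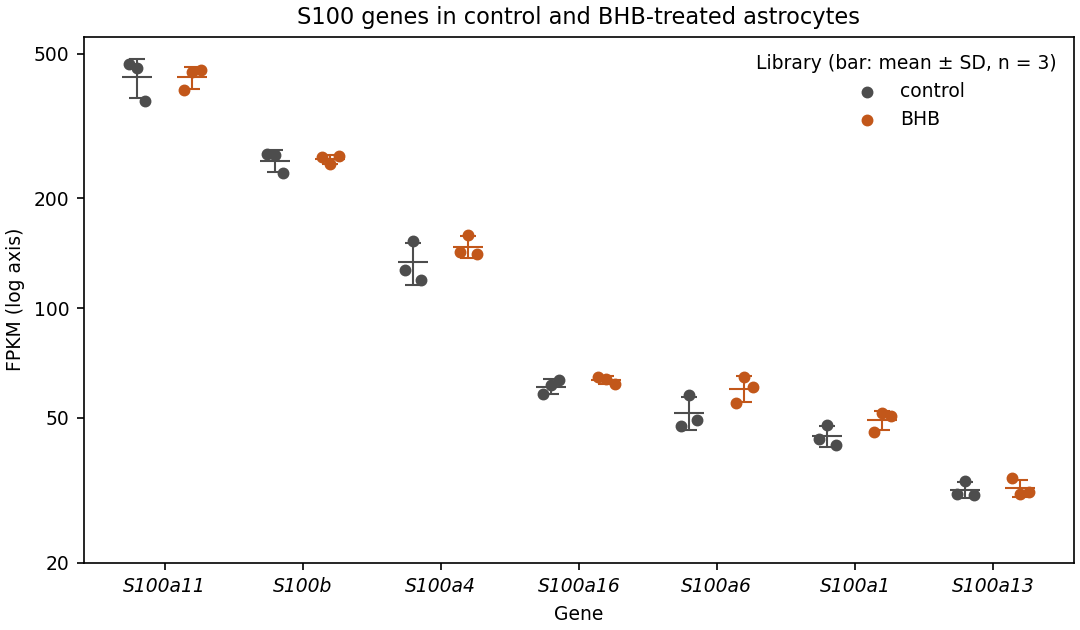
FPKM (log axis) of the 7 S100 genes in 3 control and 3 BHB libraries; points are libraries and bars give the mean ± SD. S100a11 lies at 371 to 467 FPKM and S100a13 at 30.7 to 34.1 FPKM, and control and BHB points overlap for each gene.

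None of the 7 genes passed the test between BHB and control. Differences were tested with limma on log2(FPKM + 1) over the 12373 genes that reached 1 FPKM in 3 or more libraries, with Benjamini-Hochberg adjustment and a threshold of 0.05. Over all genes 7 passed, which is 0.0566% of those tested. Of the S100 genes 0 passed, and 1 (S100a6) had an unadjusted p under 0.05, against 5.59% of all genes. The groups overlapped in each of the 7 genes, whereas they did not overlap in 10.9% of all genes tested. The log2 fold change (BHB over control) was above 0 in 7 of 7 S100 genes and in 51.5% of all genes, but it turned negative for S100b and S100a11 with equal sums of FPKM or quantile normalization, and for S100a11 with median-of-ratios scaling. The median over the 7 was 0.06, and over all genes tested it was 0.0029. With equal sums 44.1% of all genes lay above 0, with quantile normalization 48.3% and with median-of-ratios scaling 49.6%.

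**Figure D2:**
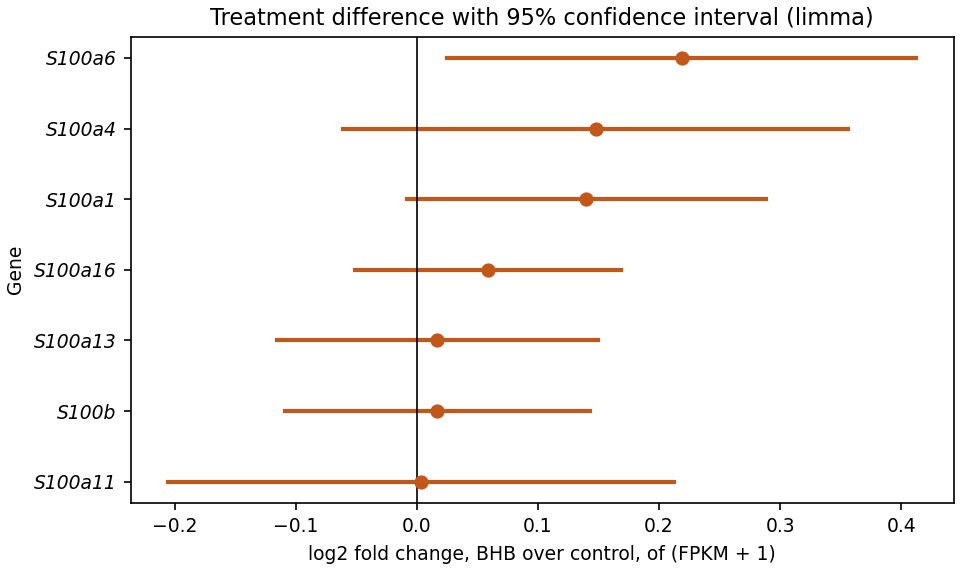
Log2 fold change, BHB over control, on the log2(FPKM + 1) scale (x axis) for each S100 gene (y axis), with the 95% confidence interval from limma. The interval of S100a6 runs from 0.03 to 0.41 and those of the other 6 genes include 0.

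S100b, the astrocyte marker of the family, was nearly level between the groups. Its values were 264, 264 and 234 FPKM in controls 1 to 3 and 261, 248 and 261 FPKM in BHB 1 to 3. Control 3 was the lowest library and the other controls were the highest, so the BHB values fell within the control range. The mean was 254 ± 17.0 FPKM in controls and 257 ± 7.26 FPKM after BHB (SD, n = 3 per group), a ratio of 1.01. On the log2 scale the difference was 0.02, with -0.11 to 0.14 as its 95% interval (limma adjusted p = 0.977), and its direction turned without control 3, to -0.04.

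S100a1 encodes a close relative of S100B that is best known from heart muscle. It stood at 43.9, 47.9 and 42.1 FPKM in controls and at 45.8, 51.5 and 50.6 FPKM after BHB. BHB 2 and BHB 3 lay above all controls, while BHB 1 lay below control 2. The log2 fold change was 0.14 (95% interval -0.01 to 0.29, limma adjusted p = 0.881), with means of 44.6 ± 2.96 and 49.3 ± 3.03 FPKM (SD, n = 3 per group).

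S100a6 had the largest log2 fold change of the 7 genes. Its protein is linked to proliferating cells and binds CacyBP, a calcyclin-binding adaptor of ubiquitin ligase complexes. Values were 47.6, 57.8 and 49.5 FPKM in controls and 55.0, 64.8 and 60.7 FPKM after BHB. As with S100a1, control 2 exceeded BHB 1, and the other 2 controls lay below all BHB libraries. The ratio of means was 1.17 (51.6 ± 5.45 against 60.2 ± 4.91 FPKM; SD, n = 3 per group). The log2 fold change of 0.22 (95% interval 0.03 to 0.41) had an unadjusted p of 0.0311 and did not pass (limma adjusted p = 0.881). Leaving out 1 library at a time moved it between 0.16 (without control 1) and 0.30 (without control 2). The unadjusted limma p of S100a6 was not under 0.05 without control 1, control 3, BHB 2 or BHB 3.

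S100a4 varied much like S100a6 from library to library, with a wider spread among controls. It stood at 127, 153 and 120 FPKM in controls and 143, 159 and 140 FPKM after BHB. Controls 1 and 3 were the lowest libraries, and control 2 was second to BHB 2. The log2 fold change was 0.15 (95% interval -0.06 to 0.36, limma adjusted p = 0.890). It ranged from 0.07 without control 3 to 0.25 without control 2.

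S100a11 showed no net difference and a wide spread. It stood at 467, 455 and 371 FPKM in controls and 396, 445 and 450 FPKM after BHB. The lowest library was a control, followed by BHB 1, and controls 1 and 2 were the highest. The means were 431 ± 52.8 FPKM in controls and 431 ± 30.0 FPKM after BHB (SD, n = 3 per group). The ratio of these means, 0.999, and the log2 fold change, 0.0036, lie on opposite sides of no change. The 95% interval was -0.21 to 0.21 (limma adjusted p = 0.997), and without control 3 the log2 fold change was -0.10. In the RefSeq gene table of GRCr8, a later assembly used only for names and neighbours, S100a11 has 5 named pseudogenes and 2 further loci with S100a11-like symbols. How reads shared between such copies were counted was not given in the sources used here, so its level is uncertain.

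S100a13 and S100a16 varied least. S100a13 stood at 30.9, 33.5 and 30.7 FPKM in controls and 34.1, 31.0 and 31.2 FPKM after BHB. The highest library was BHB 1, followed by control 2, and the remaining 4 lay within 30.7 to 31.2 FPKM. Its log2 fold change was 0.02 (95% interval -0.12 to 0.15, limma adjusted p = 0.978) and turned to -0.03 without BHB 1 and to -0.0059 without control 3. S100a16, a widely expressed member, stood at 58.0, 61.4 and 63.5 FPKM in controls and 64.9, 63.8 and 61.9 FPKM after BHB. Only controls 1 and 2 lay below all BHB libraries, and the log2 fold change was 0.06 (95% interval -0.05 to 0.17, limma adjusted p = 0.905). It ranged from 0.02 without control 1 to 0.09 without control 3.

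Permuting the libraries between groups (exact test, two-sided) gave p = 0.2 for S100a1, S100a6 and S100a16, 0.3 for S100a4, 0.5 for S100a13 and 1.0 for S100b and S100a11. The smallest p that 3 against 3 allows is 0.1. For S100b, log2 differences above 0.14 or below -0.11 lie outside the 95% limma interval. For S100a6 that interval runs from 0.03 to 0.41, and differences beyond either limit lie outside it.

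**Figure D3:**
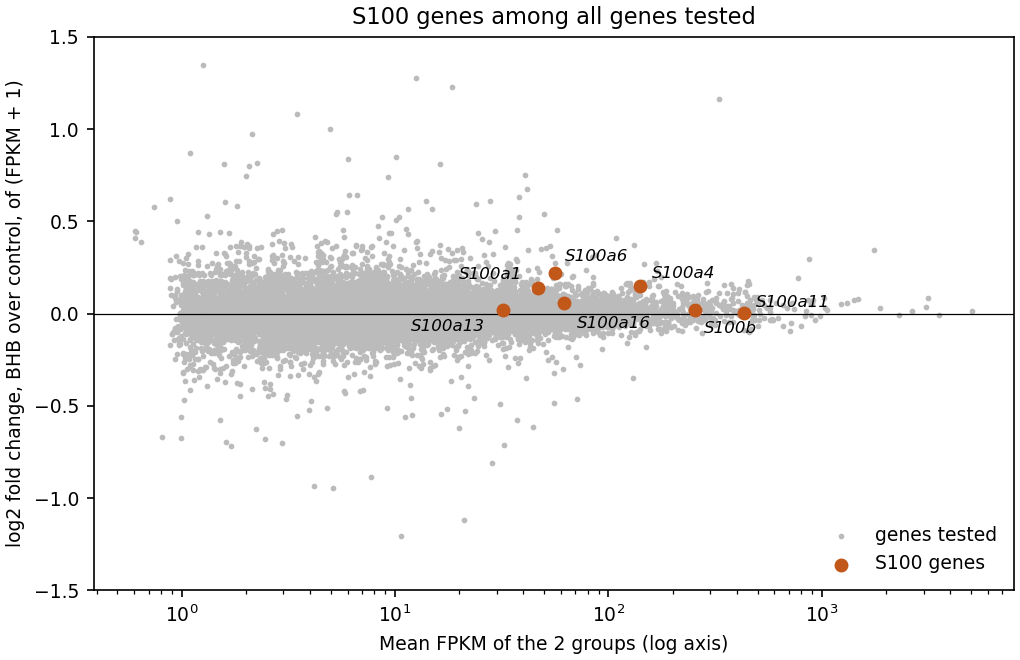
Log2 fold change, BHB over control (y axis), against mean FPKM (log axis) for the 12373 genes tested (grey) and the 7 S100 genes (orange); 5 genes lie beyond the plotted range of 1.5. The S100 genes lie between 0.0036 and 0.22, inside the cloud of all genes.

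Control 3 was the lowest of the 6 libraries in 5 of the 7 S100 genes, the exceptions being S100a6 and S100a16, while it was the lowest in 20.3% of all genes tested. It also had the lowest sum of FPKM over all genes, 354565. The sum over the 7 S100 genes was 911 FPKM in control 3, against 1039 and 1073 FPKM in controls 1 and 2 and 999 to 1064 FPKM after BHB. BHB 2 was the highest library for S100a1, S100a4 and S100a6, and for 19.0% of all genes tested. Without control 3 the log2 fold change was above 0 in 4 of the 7 genes (S100a1, S100a4, S100a6 and S100a16, at 0.10, 0.07, 0.19 and 0.09), against 51.3% of all genes in that fit.

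The spread within groups also differed between the members. On the log2(FPKM + 1) scale the residual SD was 0.15 for S100a11 and S100a4 and 0.13 for S100a6. This was larger than in 92.3%, 92.1% and 89.1% of the 6401 tested genes with a mean of at least 10 FPKM, whose median was 0.07. The SD of S100b was 0.08 and that of S100a16 0.05, larger than in 53.6% and 25.3% of these genes.

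Likeness between members was measured as the root mean square difference of their log2(FPKM + 1) values over the 6 libraries, after centring each gene on its mean. Among the 21 pairs, S100b and S100a13 were nearest (0.06), followed by S100a1 and S100a6 (0.06), S100a13 and S100a16 (0.07), and S100a4 with S100a6 and with S100a1 (0.07 each). The farthest pair was S100a6 and S100a11 (0.16). Genes that vary little are near one another by this measure, so it describes these 6 libraries and no more. By the same measure the genes nearest to S100b, among 6400 with a mean of at least 10 FPKM, were Brd7 (0.01), a bromodomain protein of chromatin remodelling complexes, Fam167a (0.02) and the dynein light chain gene Dynlt1 (0.02). The median over these 6400 genes was 0.09, and S100a13 ranked 941 in nearness to S100b. Brd7, picked for its likeness to S100b, was also lowest in control 3, at 37.0 FPKM against 39.9 to 42.6 FPKM elsewhere. This follows from how it was picked and is no separate observation.

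**Figure D4:**
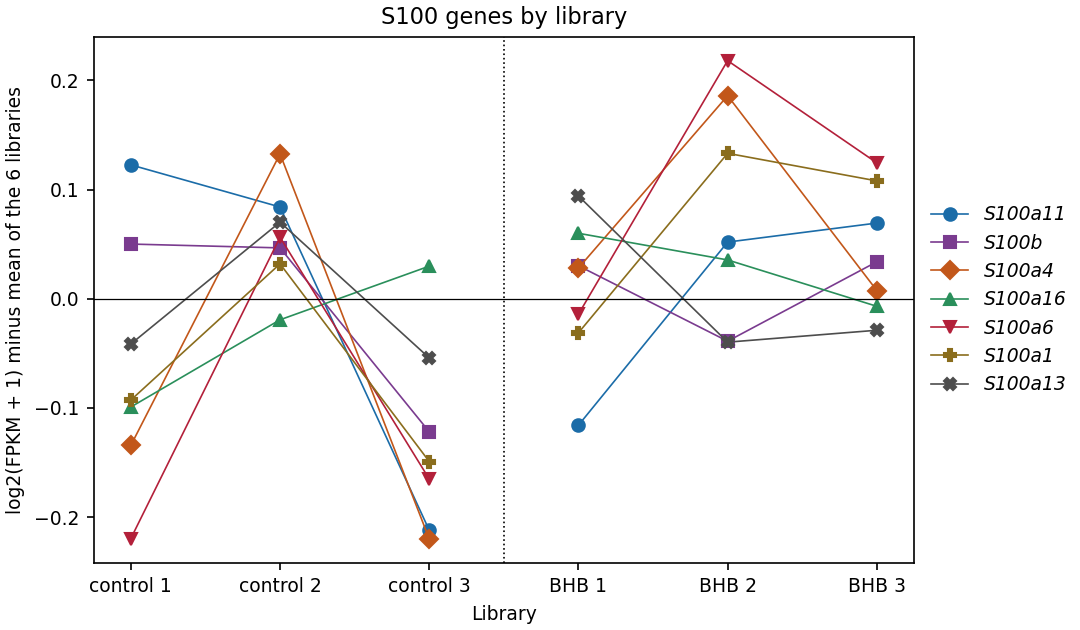
Log2(FPKM + 1) of each S100 gene minus its mean over the 6 libraries (y axis) by library (x axis); lines join the points of a gene within a group only to guide the eye. S100a1, S100a4 and S100a6 share a high point in BHB 2, and 5 of the 7 genes are lowest in control 3.

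Of the 7 genes 6 lie on rat chromosome 2 in GRCr8 and S100b lies alone on chromosome 20. On chromosome 2, S100a1 is the direct neighbour of S100a13, and S100a5 lies between S100a4 and S100a6. The span of S100b overlaps its neighbour Dip2a there, and since the strand setting of the counting was not given in the sources used here, reads from overlapping genes may not be told apart. 

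The promoter sequences of the 2 most abundant members and of the neighbours S100a4 and S100a6 are shown to compare their core motifs. They come from RefSeq (GRCr8), which held a window for 6 of the 7 members, from 250 bases before to 50 bases after the gene's start. Both strands were searched for TATAAA, known as a TATA box. The same search was made for GGGCGG, a GC box, and for TGANTCA, an AP-1 site. Capitals mark the matches. The windows are chr20:12381032-12381331 (minus strand) for S100b and, on the plus strand, chr2:181874882-181875181 for S100a11, chr2:178388279-178388578 for S100a4 and chr2:178398287-178398586 for S100a6.
S100b: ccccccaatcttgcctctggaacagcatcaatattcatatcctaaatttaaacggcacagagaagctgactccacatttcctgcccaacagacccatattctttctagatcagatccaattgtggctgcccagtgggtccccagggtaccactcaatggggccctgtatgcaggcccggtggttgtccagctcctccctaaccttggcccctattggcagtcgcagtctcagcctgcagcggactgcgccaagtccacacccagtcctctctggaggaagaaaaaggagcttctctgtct
S100a11: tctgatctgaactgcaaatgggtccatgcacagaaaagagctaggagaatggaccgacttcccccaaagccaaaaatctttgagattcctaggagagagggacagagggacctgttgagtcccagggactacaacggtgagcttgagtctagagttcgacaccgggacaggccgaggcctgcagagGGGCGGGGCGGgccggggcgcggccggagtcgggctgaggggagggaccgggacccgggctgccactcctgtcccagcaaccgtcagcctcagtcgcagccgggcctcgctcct
S100a4: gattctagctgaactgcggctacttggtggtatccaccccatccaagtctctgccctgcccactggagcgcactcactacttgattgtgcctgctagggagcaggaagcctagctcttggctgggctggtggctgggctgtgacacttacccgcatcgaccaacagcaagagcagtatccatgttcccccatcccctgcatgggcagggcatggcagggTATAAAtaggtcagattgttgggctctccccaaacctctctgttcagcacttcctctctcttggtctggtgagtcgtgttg
S100a6: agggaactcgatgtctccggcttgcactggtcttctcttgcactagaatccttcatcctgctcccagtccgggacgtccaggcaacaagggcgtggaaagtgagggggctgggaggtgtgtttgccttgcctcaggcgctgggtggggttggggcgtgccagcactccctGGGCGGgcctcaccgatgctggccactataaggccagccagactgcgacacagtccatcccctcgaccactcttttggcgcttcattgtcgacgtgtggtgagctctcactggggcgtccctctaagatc

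S100a4 was the only one of the 6 members with TATAAA, beginning at base -31 from the start, where 14.2% of the 33469 windows in the table held it on either strand. GGGCGG was found in S100a6 at -80, in S100a13 at -82 and in S100a11 at -64 and -59, where the 2 matches share a base, and in 33.1% of all windows. TGANTCA was in none of the 6 windows and in 7.33% of all windows. The windows of S100b and S100a16 held none of the 3 motifs. GC content was 54.0% for S100b, 56.3% for S100a4, 61.3% for S100a6 and 63.0% for S100a11, with a median of 51.7% over all windows. These matches describe the letters in the windows and do not show binding.

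Of the 10 other S100 genes looked for, 9 were in the table and S100a10 alone reached the minimum for testing. S100a10 encodes p11, the partner of annexin A2, which differs from the rest of the family in not depending on calcium. It lay between S100a11 and S100b, at 276 ± 10.2 FPKM in controls and 287 ± 11.5 FPKM after BHB (SD, n = 3 per group; log2 fold change 0.06, limma adjusted p = 0.910), with 0.02 without BHB 1 and 0.03 without control 3. As S100a10 has 1 named pseudogene in GRCr8, its level is uncertain in the same way as that of S100a11. Its lowest value, 266 FPKM, was close to the highest of S100b, 264 FPKM. S100a9, S100g and S100vp were listed at 0 in all 6 libraries. S100a8, the partner of S100a9 in calprotectin of myeloid cells, was listed at 0 in all libraries but control 3 (0.129 FPKM), and S100z did not exceed 0.0814 FPKM.

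Some of the scarce members were listed higher with BHB, at levels far under the minimum. S100a3 was at 0.198, 0.184 and 0.222 FPKM in controls and 0.412, 0.302 and 0.251 FPKM after BHB, so that the groups did not overlap. S100a7a was listed at 0 in all controls and at 0.164, 0.0960 and 0.165 FPKM after BHB. S100a5 was at 0.0592 FPKM in control 1 and at 0.175 and 0.303 FPKM in BHB 1 and 2, and was listed at 0 elsewhere. With no filter on low values none of these passed (limma adjusted p = 0.887 for S100a3, 0.626 for S100a7a and 0.903 for S100a5), with unadjusted p of 0.0325, 7.44e-04 and 0.0974. In that fit 953 of 17669 genes had an unadjusted p under 0.05. The share of genes without overlap between groups was counted only among the 12373 genes above the minimum. FPKM values this low may rest on very few reads.

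Binding partners and receptors of S100 proteins were looked at next, with 41 of 42 symbols in the table and 36 tested. None passed, 18 lay above and 18 below 0, the median log2 fold change was 5.5e-05, and 3 of the 36 had an unadjusted p under 0.05. Over all genes tested 0.0566% passed, 51.5% lay above 0 and 5.59% had such a p. These 3 were Fgfr1, Stk38l and Map2k1. Fgfr1, a receptor to which S100B has been linked, stood at 64.0, 63.2 and 60.9 FPKM in controls and 65.5, 68.0 and 67.9 FPKM after BHB (log2 fold change 0.10, limma adjusted p = 0.881). Stk38l, which encodes an NDR kinase of the type activated by S100B, stood at 27.0, 26.9 and 27.9 FPKM and at 28.9, 29.7 and 29.7 FPKM (0.11, limma adjusted p = 0.881). The kinase gene Map2k1 stood at 14.1 ± 0.613 and 15.6 ± 0.546 FPKM (SD, n = 3 per group; 0.14, limma adjusted p = 0.881). The groups did not overlap in these 3 of the 36 genes, against 10.9% of all genes tested.

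Ager, the receptor gene, was scarce. It stood at 2.61, 3.08 and 3.84 FPKM in controls and 2.21, 2.68 and 3.00 FPKM after BHB, with overlapping groups and a log2 difference of -0.20 (interval at 95% -0.49 to 0.09; limma adjusted p = 0.890). It was -0.09 without control 3, -0.11 without BHB 1 and -0.30 without control 1. The S100a10 partner Anxa2 was at 422 ± 9.32 and 433 ± 20.7 FPKM, and Ahnak, a large scaffold protein bound by their complex, at 23.9 ± 0.961 and 22.3 ± 0.922 FPKM (SD, n = 3 per group). Their log2 fold changes were 0.04 and -0.10 (limma adjusted p = 0.925 and 0.890). The most abundant partners were the intermediate filament genes Vim (3570 ± 127 and 3545 ± 113 FPKM) and Gfap (1438 ± 59.5 and 1517 ± 41.7 FPKM) and the chaperone gene Hspa8 (570.5 ± 29.3 and 573 ± 23.2 FPKM; SD, n = 3 per group), and none of them passed.

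Known partners of single members, named after their values were seen, were also near level. Cacybp, whose product binds S100A6, stood at 125 ± 12.8 FPKM in controls and 125 ± 7.96 FPKM after BHB (SD, n = 3 per group). Myh9, the non-muscle myosin bound by S100A4, stood at 73.1 ± 0.394 and 76.1 ± 4.36 FPKM, and Anxa1, the partner of S100A11, at 107 ± 4.25 and 108 ± 2.66 FPKM (SD, n = 3 per group). Fgf1, whose release involves S100A13, did not reach 1 FPKM in any library (highest 0.981 FPKM) and was not tested.

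Other EF-hand calcium-binding proteins served as a wider family. Of 40 genes 37 were tested, none passed, 23 were above 0, the median log2 fold change was 0.02, and 3 of the 37 had an unadjusted p under 0.05, against 51.5% of all genes above 0 and 5.59% with such a p. The groups did not overlap in 4 of the 37, against 10.9% of all genes. Cib1, a calcium- and integrin-binding protein, stood at 29.7, 29.5 and 29.1 FPKM in controls and 33.1, 33.4 and 32.3 FPKM after BHB (log2 fold change 0.16, unadjusted p = 0.00619, limma adjusted p = 0.881). Its groups lay apart by more than the spread within either. Efhd2, known as swiprosin-1, stood at 39.5 ± 1.28 and 44.0 ± 1.74 FPKM (0.15), and the leukocyte actin bundler gene Lcp1 at 4.54 ± 0.380 and 3.68 ± 0.162 FPKM (-0.24), with SD over n = 3 each and a limma adjusted p of 0.881 for both. The most abundant were the matrix protein gene Sparc, its relative Sparcl1 (377 ± 25.8 and 373 ± 9.69 FPKM) and the secretory pathway gene Calu (302.5 ± 3.70 and 298 ± 9.82 FPKM; SD, n = 3 per group). Sparc was at 1441 to 1531 FPKM in controls and at 1463, 2936 and 1598 FPKM in BHB 1 to 3. Its log2 fold change of 0.34 (limma adjusted p = 0.893) was 0.03 without BHB 2.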

How the data were processed

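Poly(A) RNA of rat primary astrocytes was captured on oligo-dT beads and made into libraries with the Illumina TruSeq RNA kit (version 2), per the labels' protocols. The authors deposited FPKM values for 22608 gene symbols in 3 control and 3 BHB libraries. Of tools, bcl2fastq 2.0, HISAT2, StringTie and DESeq2 are listed in the submitters' processing notes, with the build rn6 and no roles or settings. FPKM cannot be tested as counts, and sequencing depth is unknown. The most frequent ratio of values under 0.1 FPKM puts the worth of 1 read, relative to control 1, between 0.853 (control 3) and 1.01 (BHB 2), a rough estimate, since 15 to 18 of 582 to 638 genes held each ratio. Values of S100b, S100a4, S100a6, S100a11 and S100a16 have more than 6 decimals, as do 57.4% of tested genes, and how they were combined from transcripts was not given in the sources used here.

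Values were taken as log2(FPKM + 1) without further scaling, a scale that understates changes of low genes. Genes that reached 1 FPKM in 3 or more libraries were fitted with limma 3.58.1 in R 4.3.3 (eBayes with intensity trend, two-sided, Benjamini-Hochberg over 12373 genes, threshold 0.05). Exact permutation tests used SciPy 1.17.1. The fit was tested on simulated data with normal noise and known changes. It called 21.4% of genes changed by 0.25 on the log2 scale, 84.4% at 0.5 and 98.8% at 1, with 5.21% false calls. The largest log2 fold change of the 7 S100 genes was 0.22.

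The members and lists were chosen with earlier results of these data known. Named were the 7 members, other S100 genes, Ager, Anxa2, Ahnak, the 3 partner and 3 EF-hand genes with the smallest p and the 3 most abundant of each, the leading and absent genes of each cell type, and the 3 genes nearest to S100b. Alternatives varied the pseudocount, filter, trend, scaling, array weights, single libraries and the replicate block.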

Additional observations from a re-analysis of the deposited data

How the results depend on the processing

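Of the 7 S100 genes 0 were called in the main setting and in each of the 16 alternatives, with 0 to 3 at an unadjusted limma p under 0.05. In the main setting the count was 1, against 692 of the 12373 genes tested (5.59%). The count was 3 with the replicate block and without control 2, where 606 and 697 of all genes tested had such a p. The count was 0 without control 1, control 3, BHB 2 or BHB 3, where 545, 678, 426 and 615 genes did. Over all genes 7 were called, 4 without the eBayes trend and 2 with the replicate block, and the cause was not tested. Between 5 and 10 were called when 1 library was omitted. Whether the numbers shared by the groups pair the samples was not given in the sources used here. Deviations of same-numbered libraries from their group means correlated at -0.09, 0.16 and -0.15 across genes. Controls 1 and 3 correlated best with other numbers, BHB 3 (0.19) and BHB 1 (0.20), and control 2 with its own. With 3 libraries per group these correlations depend on one another, so they cannot tell whether the samples were paired. The median log2 fold change of the 7 genes ran from 0.04 (equal sums) to 0.08 (without BHB 3). Equal sums turned S100b to -0.00013, S100a11 to -0.013, Hspa8 to -0.010, Cacybp to -0.0089 and Anxa1 to -0.0093. Quantile normalization turned S100b to -0.011, S100a11 to -0.038, Anxa2 to -0.0098 and Cacybp to -0.0059. Median-of-ratios scaling turned S100a11 to -0.00076, and array weights turned S100a13 to -0.0016. The cause of these turns was not tested. Leaving out a library moved S100b from -0.040 to 0.046, S100a11 from -0.10 to 0.066, S100a13 from -0.026 to 0.056, Anxa2 from -0.0018 to 0.060, Vim from -0.038 to 0.016, Hspa8 from -0.036 to 0.037, Sparcl1 from -0.070 to 0.026, Calu from -0.041 to 0.0056, Cacybp from -0.065 to 0.082 and Anxa1 from -0.025 to 0.028. The direction of S100a1, S100a4, S100a6 and S100a16 was the same in all 16 alternatives. Depth is unknown, and small changes can be missed with 3 libraries per group.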
